A study of Mus musculus with 8 samples.

Results

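Loss of type XVIII collagen was examined in mouse fetal liver at embryonic day 14.5 (E14.5) by comparing 2 arrays from Col18a1-/- embryos with 2 arrays from Col18a1+/+ embryos. The measurements are total RNA levels on an Affymetrix mouse genome array, and the genes described are all 17405 autosomal genes with a probe set that names a single gene, of 18194 such genes on the array. Where a gene had several probe sets, the 1 with the highest mean over the 8 arrays of the series stood for it. The 4 fetal liver arrays are 4 of those 8 arrays, the other 4 coming from flushed femur and tibia marrow of 3-month-old males of the same 2 genotypes.

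Every group was on the C57B6/J strain. The growth protocol speaks of separate Col18a1+/+ and Col18a1-/- lines, while the design text calls the wild-type mice littermates, and the sources used here do not settle which applies. Fetal livers were dissected, broken up by pipetting and filtered, and no sorting is described, so an array reports on every cell of the suspension. For each array, 2 littermates were pooled before RNA extraction, and the sex of the embryos is given as undetermined. Fewer cells of a type and less RNA per cell cannot be told apart in such a suspension. Precision is limited by having 2 pools per genotype.

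Type XVIII collagen is a basement membrane collagen that also carries heparan sulfate chains, and proteolysis of its C-terminal end releases endostatin, a fragment known for inhibiting the growth of blood vessels. At mid-gestation the liver is the main site of blood formation. Red cell precursors make up most of it, and they develop beside hepatoblasts, stellate cells, sinusoidal endothelium and macrophages. Basement membrane proteoglycans bind growth factors such as VEGF, FGF and Wnt ligands, so genes of these pathways, of the liver's cell types and of matrix assembly were followed as lists.

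The suspensions carried the markers of fetal liver on every array. The hepatoblast products Afp and Alb lay at 14.5 to 14.7 and 14.3 to 14.5 (log2 intensity) on the 4 fetal liver arrays, the embryonic globin gene Hbb-y at 14.4, and the erythroid transcription factor gene Klf1 at 12.3 to 12.4. Dlk1, a hepatoblast surface gene, lay at 10.8 to 11.1, and Kit, a stem and progenitor cell receptor gene, at 8.1 to 8.5. Of these markers and Ttr, none passed the test between genotypes.

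Sex-linked genes separated the genotypes too. Xist, which coats the silenced X chromosome, measured 11.04 and 11.22 in the wild-type pools and 4.97 and 4.77 in the knockout pools, while the Y-linked Eif2s3y measured 3.29 and 3.003 in the wild-type and 9.38 and 9.42 in the knockout pools. The 2 wild-type pools therefore had the levels of females and the 2 knockout pools those of males, so that genotype and embryo sex cannot be told apart for any fetal liver difference. The description keeps to autosomal genes, which does not remove an effect of sex on autosomal genes. Other measures of the RNA differed among the pools. The log2 ratio of 3' to 5' probe sets of beta-actin was 1.45 and 1.62 in the wild-type pools and 1.80 and 1.62 in the knockout pools, and that of Gapdh was 1.33 and 1.66 against 1.86 and 1.62, highest in knockout pool 1 for both. The same ratio of the transferrin receptor was 0.529 and 0.832 against 0.614 and 0.578, and that of pyruvate carboxylase 2.25 and 2.42 against 2.29 and 2.09, highest in wild-type pool 2 for both. The mean of the probe sets for bacterial control transcripts was 9.20 and 9.25 in the wild-type and 8.87 and 8.98 in the knockout pools. The part of these measures in the results below was not tested.

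Col18a1 itself fell in the knockout pools. Its sequences at both RefSeq transcription starts are shown because the gene is read from 2 starts and the 2 probe sets of the array differed in size of fall between the tissues. Each window is 300 bases on the minus strand of GRCm38.p6, written 5′ to 3′ and ending shortly inside the transcript. Capitals mark the letters of 4 motifs found on either strand. The CCAAT box is searched by those 5 letters. The GC box is searched as GGGCGG. The TATA box is searched as TATAAA. The core of the site bound by TEAD factors is searched as GGAATG. Overlapping matches of 1 motif on 1 strand count once.
Col18a1, first start, chr10:77166481-77166780: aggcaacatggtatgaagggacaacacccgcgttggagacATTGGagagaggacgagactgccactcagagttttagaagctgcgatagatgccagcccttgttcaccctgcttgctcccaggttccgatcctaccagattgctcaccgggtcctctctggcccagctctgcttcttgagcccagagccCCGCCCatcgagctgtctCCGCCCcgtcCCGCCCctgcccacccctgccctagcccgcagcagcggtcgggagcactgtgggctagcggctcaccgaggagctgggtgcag
Col18a1, second start, chr10:77113656-77113955: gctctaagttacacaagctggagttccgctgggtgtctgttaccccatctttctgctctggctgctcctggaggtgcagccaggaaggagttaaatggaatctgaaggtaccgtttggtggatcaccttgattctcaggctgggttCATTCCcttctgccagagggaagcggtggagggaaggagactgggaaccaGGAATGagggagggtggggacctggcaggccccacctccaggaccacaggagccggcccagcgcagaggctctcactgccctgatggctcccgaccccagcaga
The first window holds 16 CpG dinucleotides, 3 GC boxes and 1 CCAAT box. The second holds 6 CpG dinucleotides and 2 TEAD cores and no match to the other motifs. Of 10200 first promoters of tested autosomal genes, 62.0% hold a GC box, 38.1% a CCAAT box, 11.9% a TEAD core and 7.66% a TATA box, so a match is a description of these letters and not a site in use.

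The _s_at probe set of Col18a1, which stood for the gene, measured 9.06 and 9.18 in the wild-type pools and 8.17 and 8.06 in the knockout pools. Both knockout pools lay below both wild-type pools, and the difference of -1.003 ± 0.13 (log2, SE) passed the test over the genes tested (adjusted p = 0.0315, limma) and over the probe sets that passed the filter (0.0421), but not over all probe sets with no filter (0.0546). The _at probe set measured 8.89 and 9.11 against 7.27 and 7.49, and fell by 1.62 ± 0.135 (adjusted p = 0.0034 over all probe sets with no filter). In bone marrow the order of the probe sets was the opposite, the differences being -2.03 for the _s_at and -1.34 for the _at probe set. The labels do not place the probe sets relative to the deleted part, and the signal left in the knockout pools is therefore no measure of how complete the deletion was. The call was lost in a fit of the fetal liver arrays alone (adjusted p = 0.157) and on leaving out knockout pool 1 (0.104), wild-type pool 1 (0.0909) or 2 (0.11), or either wild-type marrow array (0.0815). The 40 tested autosomal genes nearest to Col18a1, 20 on each side, had a median difference of 0.01, with 21 positive and 19 negative and none called; at an unadjusted p under 0.05 there were 3 negative and 2 positive ones (limma).

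Of 12677 autosomal genes tested, 12 rose and 23 fell in knockout fetal liver (adjusted p under 0.05, limma over 13136 genes of all chromosomes), which is 0.0947% and 0.181% of those tested, or 0.276% together. The rises ran from 1.46-fold to 2.07-fold and the falls from 1.53-fold to 2.004-fold. Another 4728 autosomal genes were too dim to be tested. At an unadjusted p under 0.05 there were 1005 higher (7.93%) and 1760 lower genes (13.9%), together 21.8% of those tested. In 49.9% of genes both knockout pools lay on one side of both wild-type pools. The median difference over all autosomal genes tested was -0.03 (log2), with 45.0% positive.

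These calls rested on the spread shared with the bone marrow arrays, which varied less. The median SD between arrays was 0.083 for wild-type and 0.106 for knockout fetal liver. In marrow it was 0.063 and 0.069. The SEs given here come from the shared fit. For the called genes they ran from 0.082 to 0.137, against 0.108 to 0.155 in a fit of fetal liver alone. With the 4 fetal liver arrays fitted alone no autosomal gene was called (lowest adjusted p = 0.121, limma), against 1838 genes (14.5%) at an unadjusted p under 0.05. Leaving out knockout pool 2 gave 958 calls and leaving out knockout pool 1 gave 1, wild-type pool 1 gave 10 and wild-type pool 2 gave 2. Leaving out 1 bone marrow array gave 5 calls for either wild-type and 9 for either knockout array. The median absolute distance from the wild-type mean was 0.187 for knockout pool 1 and 0.132 for knockout pool 2, against 0.117 between the 2 wild-type pools and 0.150 between the 2 knockout pools. The balance of rises and falls moved with the scaling: 34.3% of calls were rises as deposited, 56.2% after centring each array on its median and 53.5% after a further quantile normalization. No called gene changed direction in the alternative settings that gave it a value, which were all 22 for 26 of the 35 genes and at least 20 for the others. Of these settings, 15 leave the differences as they are and alter only the test, the filter or the marrow arrays, so that 7 could have changed a direction.

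**Figure D1:**
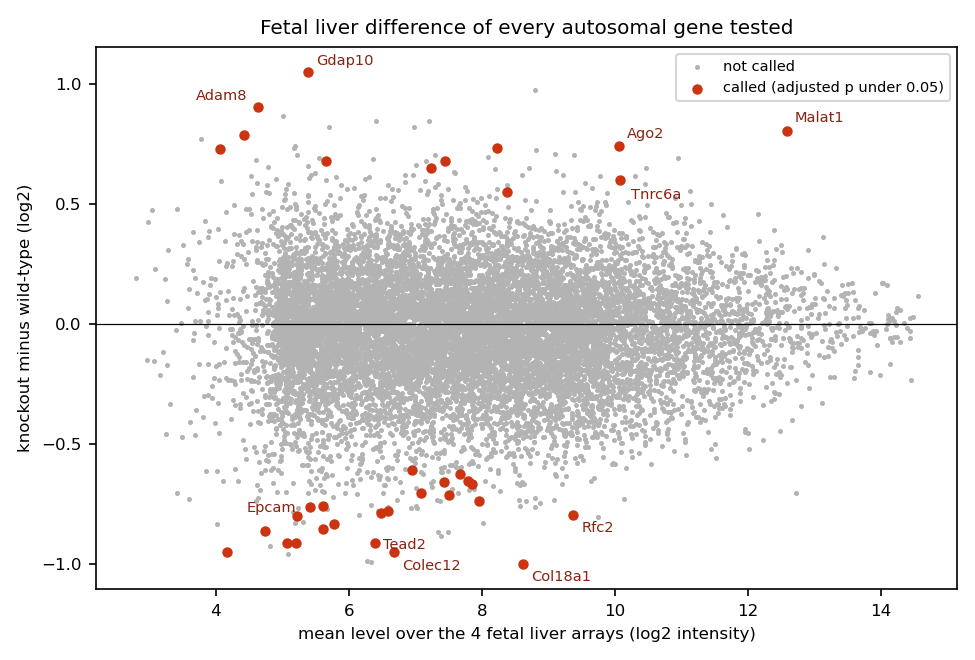
Difference between knockout and wild-type fetal liver (log2, vertical axis) against the mean level over the 4 fetal liver arrays (log2 intensity, horizontal axis), 1 point per autosomal gene tested. The 35 called genes are red, 12 above and 23 below the line at 0, and they lie among uncalled genes with differences of like size.

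**Figure D2:**
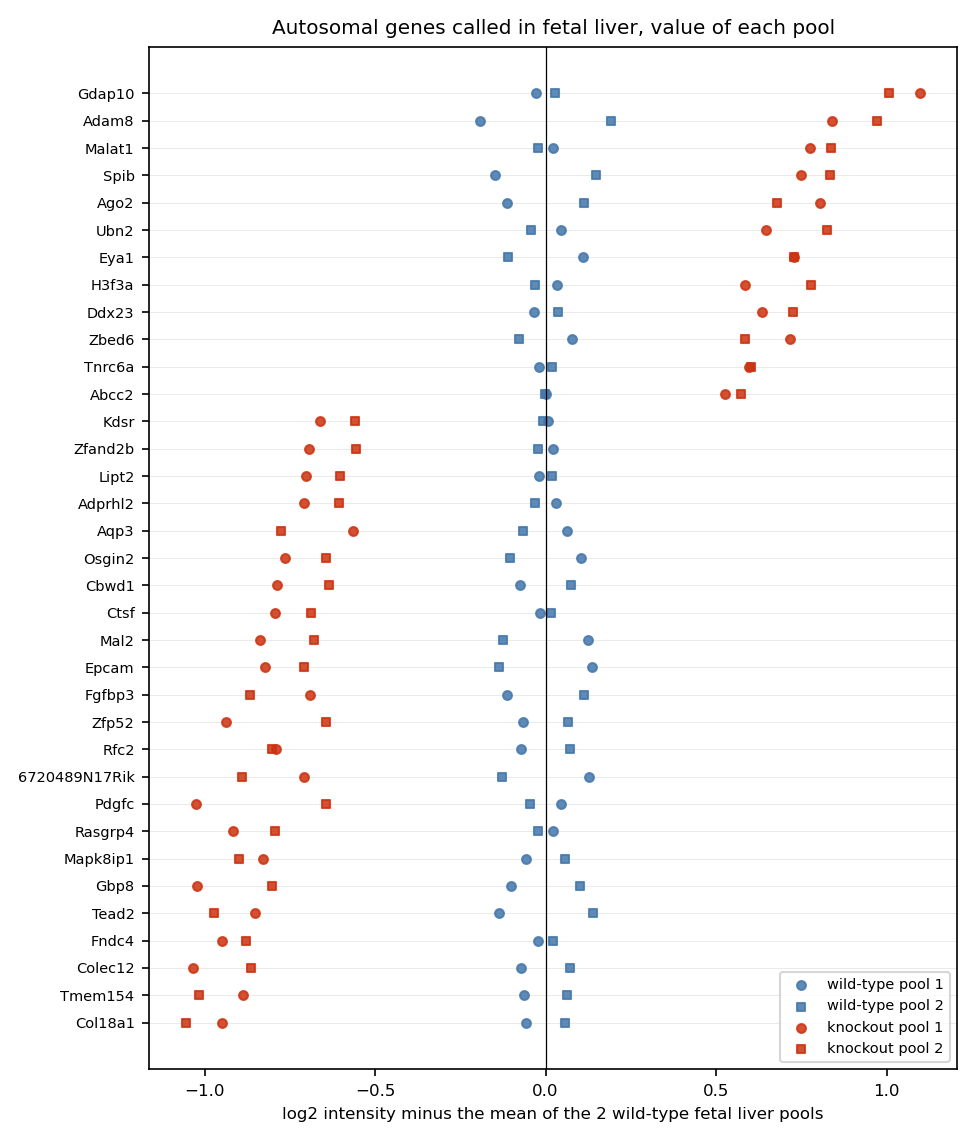
Value of each fetal liver pool for the 35 called autosomal genes, as log2 intensity minus the mean of the 2 wild-type pools (horizontal axis), ordered by the difference. Blue marks are wild-type and red marks knockout pools, circles pool 1 and squares pool 2, and in no gene do the genotypes overlap.

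The genes Ago2 and Tnrc6a, which act together in RNA silencing, rose. Ago2, the Argonaute protein that cuts targets of small RNAs, measured 9.57 and 9.80 in the wild-type pools and 10.49 and 10.37 in the knockout pools, a rise of 0.74 ± 0.10 (adjusted p = 0.0399). Tnrc6a, the GW182 scaffold that Argonaute proteins recruit to repress messenger RNAs, measured 9.77 and 9.81 against 10.38 and 10.39, a rise of 0.60 ± 0.08 (adjusted p = 0.0399). The genotypes did not overlap for either gene. The paralog Tnrc6b measured 9.22 and 9.28 against 9.77 and 9.91 and just missed the threshold (0.59 ± 0.09, adjusted p = 0.0525), while Tnrc6c differed by 0.36 (adjusted p = 0.117). The 3 other probe sets of Ago2 differed by 0.53, 0.61 and 0.74. The others of Tnrc6a were uneven: of 7 bright enough to test, 4 differed by 0.46 to 0.64, whereas 3 stood at 0.28, 0.04 and -0.002.

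Over the list of Argonaute and microRNA processing genes, 2 of 15 tested members rose and none fell, and 13 of 15 differences were positive, with a median of 0.23 against -0.03 over all autosomal genes tested. At an unadjusted p under 0.05, 7 members were higher and none lower, against 7.93% and 13.9% of all autosomal genes tested. The list mean was 8.28 and 8.39 in the wild-type pools and 8.63 and 8.58 in the knockout pools, so that the genotypes did not overlap. In bone marrow the list's median difference was -0.02. The list was drawn up with these results in view, so its direction is no independent evidence.

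Malat1, a nuclear long non-coding RNA of splicing speckles, was the brightest gene that rose. It measured 12.20 and 12.16 in the wild-type pools and 12.96 and 13.02 in the knockout pools, a rise of 0.81 ± 0.10 (adjusted p = 0.0356). The genotypes were separated by several times the distance between pools. Its 6 other probe sets were all positive, from 0.05 to 1.02, and 3 of them were called when every probe set was tested. Of 17 nuclear long non-coding RNAs tested, Malat1 alone was called, 12 were positive and the median was 0.24. At an unadjusted p under 0.05, 6 were higher and 2 lower, against 7.93% and 13.9% of all autosomal genes tested. This list too was drawn up with earlier results of these data known, so its direction is no independent evidence. Neat1, the RNA of paraspeckles, differed by 0.49 (adjusted p = 0.115) and the imprinted RNA Meg3 by 0.50 (adjusted p = 0.142). The list mean was 8.85 and 8.96 in the wild-type pools against 8.98 and 9.19 in the knockout pools, knockout pool 2 standing farthest out.

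Ubn2 and H3f3a, which act in histone H3.3 chromatin, rose, as did Ddx23 and Zbed6. Ubn2, a ubinuclein of the complex that deposits histone H3.3, measured 7.90 and 7.81 in the wild-type and 8.50 and 8.68 in the knockout pools (0.73 ± 0.10, adjusted p = 0.0399), while its 2 other tested probe sets differed by 0.16 and 0.37. H3f3a, which encodes histone H3.3 and has near-identical copies that its probe set may not separate, measured 7.14 and 7.08 against 7.69 and 7.89 (0.68 ± 0.10, adjusted p = 0.041). Both genes stood higher in both knockout pools, whereas another H3 chaperone gene, Asf1a, differed by -0.39 (adjusted p = 0.102), and the 12 tested histone and chaperone genes had a median of 0.13 with 8 positive. Ddx23, a helicase of the spliceosome, rose by 0.68 ± 0.10 (adjusted p = 0.041). Zbed6, a transcription factor derived from a transposon and encoded inside another gene, whose unspliced RNA its probe set may also read, rose by 0.65 ± 0.10 (adjusted p = 0.0448), with another tested probe set at 0.10.

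The remaining rises had no common list. Gdap10 had the lowest adjusted p of all autosomal genes, at 4.83 and 4.89 in the wild-type pools and 5.96 and 5.87 in the knockout pools (1.05 ± 0.09, adjusted p = 0.00295). Abcc2, the pump that exports conjugated bilirubin and drugs into bile, measured 8.11 and 8.10 against 8.63 and 8.68 (0.55 ± 0.08, adjusted p = 0.0424). Adam8, a membrane metalloprotease of leukocytes, measured 3.99 and 4.38 against 5.02 and 5.16 (0.91 ± 0.14, adjusted p = 0.0427). All 3 were higher in both knockout pools, but Adam8 lay near the bottom of the intensity range, as did Spib, an ETS transcription factor of B cells (0.79), and Eya1, a phosphatase and transcriptional coactivator (0.73). Another tested probe set of Eya1 was negative, at -0.26. Spib, Eya1 and Tmem154, the last of which fell, were under 5 on all 4 fetal liver arrays and were tested because of their bone marrow levels. Fndc4, Mapk8ip1 and 6720489N17Rik, which fell, reached 5 on the 2 wild-type fetal liver arrays alone, so that they could be tested only because they were high there.

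The genes that fell included Colec12, Pdgfc, Fgfbp3 and Fndc4. Colec12, a collectin scavenger receptor, measured 7.08 and 7.22 in the wild-type pools and 6.12 and 6.29 in the knockout pools, and fell by 0.95 ± 0.11 (adjusted p = 0.0171). Pdgfc, a platelet-derived growth factor that acts on mesenchymal cells, measured 6.24 and 6.15 against 5.17 and 5.55, and fell by 0.83 ± 0.13 (adjusted p = 0.0424). Knockout pool 1 was the lower of the 2 knockout pools for both, and neither overlapped the wild-type. Pdgfc's other probe set differed by -0.72. Fgfbp3, which binds fibroblast growth factors and releases them from matrix, measured 6.86 and 7.09 against 6.29 and 6.11, and fell by 0.78 (adjusted p = 0.0399). Fndc4, a protein with a fibronectin type III domain, fell by 0.91 ± 0.09 (adjusted p = 0.0112), from 5.64 and 5.68 to 4.71 and 4.78, having passed the filter through the wild-type pools alone.

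Epcam, Mal2 and Aqp3, which encode membrane proteins, fell as well. Epcam, the adhesion molecule of hepatoblasts and biliary cells, measured 5.93 and 5.66 in the wild-type and 4.97 and 5.09 in the knockout pools (it fell by 0.77 ± 0.12, adjusted p = 0.0424). A second, _x_at probe set of Epcam gave -0.02, so the array's probe sets disagree for this gene. Mal2, a membrane protein of apical transport in epithelia, measured 6.12 and 5.87 against 5.16 and 5.32, and fell by 0.76 (adjusted p = 0.041). Aqp3, a water and glycerol channel also present in red cells, measured 8.25 and 8.13 against 7.63 and 7.42, and fell by 0.67 (adjusted p = 0.0431). The genotypes did not overlap for Mal2 or Aqp3, and the 2 other tested probe sets of Aqp3 were also negative, at -0.09 and -0.37.

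Further falls were those of Tead2, Mapk8ip1, Rasgrp4 and Zfp52, which act in signalling or transcription. Tead2, a DNA-binding partner of the Hippo pathway coactivators Yap1 and Taz, measured 6.71 and 6.99 in the wild-type and 5.998 and 5.88 in the knockout pools, and fell by 0.91 ± 0.13 (adjusted p = 0.041). Mapk8ip1, a scaffold of JNK signalling that passed the filter through the wild-type pools alone, measured 5.11 and 5.22 against 4.34 and 4.27, and fell by 0.86 ± 0.09 (adjusted p = 0.0112). Rasgrp4, a Ras activator of mast cells and myeloid cells, measured 6.06 and 6.01 against 5.12 and 5.24, and fell by 0.86 ± 0.09 (adjusted p = 0.0139). For all 3 the genotypes stood apart by more than the distance between pools, although other mast cell genes were not called: of 10 tested genes of mast cells, basophils and eosinophils none passed and 9 were negative, with a median of -0.17. Zfp52, a zinc finger gene, fell by 0.79 (adjusted p = 0.041), with a second, dimmer probe set at 0.10.

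Promoter windows of Tead2 and Pdgfc are shown because Tead2 encodes a TEAD factor and Pdgfc is a called gene whose window holds 2 TEAD cores, with the same capitals as above. Both are on the plus strand.
Tead2, chr7:45215542-45215841: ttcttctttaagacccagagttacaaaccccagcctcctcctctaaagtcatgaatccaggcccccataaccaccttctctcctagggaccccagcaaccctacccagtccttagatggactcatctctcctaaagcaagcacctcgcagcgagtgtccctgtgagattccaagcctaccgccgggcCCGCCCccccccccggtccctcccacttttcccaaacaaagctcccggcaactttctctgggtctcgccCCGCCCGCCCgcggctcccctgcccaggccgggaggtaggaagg
Pdgfc, chr3:81036166-81036465: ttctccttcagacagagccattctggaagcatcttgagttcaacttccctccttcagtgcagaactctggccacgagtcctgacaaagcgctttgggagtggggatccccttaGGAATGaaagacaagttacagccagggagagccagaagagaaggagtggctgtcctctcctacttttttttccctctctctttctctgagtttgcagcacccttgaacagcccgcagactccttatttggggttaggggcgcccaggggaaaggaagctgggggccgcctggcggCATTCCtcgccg
Tead2's window holds 13 CpG dinucleotides and 2 GC boxes, and no TEAD core was found in it. A TEAD core stood in 3 of the 15 windows of genes that fell, in 1 of the 9 windows of genes that rose and in 11.9% of all 10200. Whether Tead2 acts on Pdgfc or on any other of these genes was not tested. GC boxes stood in 9 of 15 and 4 of 9 windows, against 62.0% of all. The median number of CpG dinucleotides was 16 for genes that fell and 10 for genes that rose, against 20 over all. The window table, from RefSeq (GRCm38.p6), held 24 of the 35 called genes.

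Rfc2, a subunit of the clamp loader that places PCNA on DNA, was the brightest gene that fell. It measured 9.70 and 9.85 in the wild-type and 8.99 and 8.97 in the knockout pools, and fell by 0.80 ± 0.09 (adjusted p = 0.0171), and its other 2 probe sets differed by -0.87 and -0.83. The pools of each genotype lay close together. Of 39 tested cell cycle and replication genes, Rfc2 alone was called, 21 were positive and 18 negative, and the median was 0.01. Rfc4, a second clamp loader subunit, differed by -0.42 (adjusted p = 0.117), the replication gene Gins2 by -0.49 (adjusted p = 0.122) and the proliferation marker Mki67 by 0.36 (adjusted p = 0.108).

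The other falls included several enzymes. Ctsf, a lysosomal cathepsin, measured 8.31 and 8.34 in the wild-type and 7.54 and 7.64 in the knockout pools, and fell by 0.74 (adjusted p = 0.0399), while a dim second probe set stood at 0.28. Kdsr, a reductase of sphingolipid synthesis, fell by 0.61 (adjusted p = 0.041), with its 2 other probe sets at -0.18 and 0.21. Lipt2, a transferase of lipoic acid synthesis, fell by 0.65, Adprhl2, a hydrolase that removes ADP-ribose from proteins, by 0.66 and Cbwd1 by 0.71 (adjusted p = 0.0399 for each). Zfand2b, a proteasome-associated zinc finger protein, fell by 0.62 and Osgin2 by 0.70 (adjusted p = 0.041 for each), with the other probe sets of Osgin2 at 0.24 and -0.29. Gbp8, of the guanylate-binding proteins induced by interferon, fell by 0.91 ± 0.11 (adjusted p = 0.0315), the dim gene Tmem154 by 0.95 ± 0.10 (adjusted p = 0.0112) and the clone-named 6720489N17Rik by 0.80 (adjusted p = 0.0399). Over all called genes, 17 had another probe set bright enough to test, 35 in all, of which 29 had the direction of the chosen one and 20 of those an unadjusted p under 0.05.

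No gene of the red cell lists passed the test. None of 20 erythroid transcription factor and Epo signalling genes was called, 16 were positive and the median was 0.06. Sox6, which silences embryonic globin, measured 9.60 and 9.63 in the wild-type and 10.08 and 10.15 in the knockout pools, a difference of 0.50 ± 0.09 that missed the threshold (adjusted p = 0.0708). Bcl11a, another globin silencer, measured 9.52 and 9.48 against 9.84 and 9.86 (0.35 ± 0.08, adjusted p = 0.0996). For both genes the knockout pools lay above the wild-type pools.

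Hbb-bh1, an embryonic beta-like globin, measured 13.17 and 12.995 in the wild-type and 12.24 and 12.51 in the knockout pools, a difference of -0.71 ± 0.16 (adjusted p = 0.0962). All 5 tested globin and globin chaperone genes were negative, against 55% of all autosomal genes tested, and none was called. Of the other embryonic globin genes, Hbb-y differed by -0.02 and Hba-x by -0.13. Hbb-y lay near the top of the intensity range, at 14.36 to 14.43, and gave -0.10 with the mean of its probe sets. Whether a difference could show at that level was not tested. Globin gene copies are alike in sequence, so 1 probe set may read several. Of 21 red cell membrane and skeleton genes none was called and 18 were positive, with a median of 0.15, including Ank1 (0.41), Ermap (0.39), the blood group gene Kel (0.45) and the spectrin gene Sptb (0.40). Genes of heme synthesis (17 tested, median -0.01), iron handling (17, median -0.02) and terminal remodelling (15, median 0.08) had no called member. The biliverdin reductase genes Blvra and Blvrb differed by -0.47 and -0.27.

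Of the hepatic lists, the 22 hepatoblast surface and transcription factor genes had 1 call, Epcam, with 13 positive and a median of 0.13. Onecut2, a liver transcription factor, differed by 0.62 (adjusted p = 0.0996) and Tbx3, which holds hepatoblasts in the hepatic lineage, by 0.37. None of 44 genes of secreted hepatocyte proteins was called, 24 were positive and the median was 0.05. Igfbp1, a secreted binding protein of insulin-like growth factors, measured 10.59 and 10.62 in the wild-type and 11.51 and 11.07 in the knockout pools (0.69 ± 0.16, adjusted p = 0.0996), so that knockout pool 1 stood farthest out. Hpx, the heme carrier hemopexin, differed by -0.40. Of 18 hepatic metabolic enzymes none was called and 11 were negative (median -0.04), with Cps1 of the urea cycle at -0.57 and Gstm1 at 0.42. The biliary list had 4 tested members, Krt19 at -0.52, Notch2 at -0.41, Krt7 at 0.17 and Jag1 at 0.01, and none was called.

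No stromal gene was called. Of 34 tested genes of stellate cells and mesenchyme, 25 were negative (73.5%, against 55% of all autosomal genes tested) and the median was -0.18. At an unadjusted p under 0.05, 7 were lower (20.6%, against 13.9%) and none higher. The median was -0.06 both with the mean of a gene's probe sets and without knockout pool 1. The list mean was 8.40 and 8.39 in the wild-type pools and 8.23 and 8.29 in the knockout pools. Mfap4 differed by -0.47, Ptn by -0.58, Lum by -0.44 and Nes by -0.35, with adjusted p of 0.12 to 0.192. Without knockout pool 1, Mfap4, Ptn and Lum stood at -0.28, -0.28 and -0.18, and without knockout pool 2 at -0.67, -0.87 and -0.70. Each of these fits leaves 1 knockout array, so only the sizes are given. Nes stood at -0.06 with the mean of its probe sets. In bone marrow the same list had a median of -0.25. Mesothelial genes (7 tested, median -0.24) included Wt1, at 5.34 and 6.13 in the wild-type and 5.05 and 5.01 in the knockout pools, a wide spread between the wild-type pools. Markers of tissues outside the liver were also mostly negative where they were of muscle, with 8 of 9 tested genes below 0 and a median of -0.20. The muscle list mean was 6.24 and 6.66 in the wild-type and 6.29 and 6.12 in the knockout pools. The genotypes thus overlapped, with wild-type pool 2 standing farthest out. The part of differing cell content in these values was not tested.

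Type XVIII collagen itself belongs by function with the basement membrane list. None of its 22 other tested genes was called, 11 were positive and 11 negative, and the median was 0.02, over differences from -0.57 to 0.45. Hspg2, the proteoglycan perlecan, measured 9.66 and 9.48 in the wild-type and 9.96 and 9.80 in the knockout pools (0.31 ± 0.12, adjusted p = 0.19), and the nidogen gene Nid1 differed by 0.25 (adjusted p = 0.275). None of 20 heparan sulfate proteoglycans and their enzymes was called (median 0.02), with the sulfatase gene Sulf1 at -0.63 and the glypican genes Gpc6 and Gpc1 at 0.47 and -0.40. Collagen folding and crosslinking genes (15 tested, 11 negative, median -0.06), integrins (18, median -0.01) and matrix proteases with their inhibitors (30, 20 negative, median -0.11) yielded a single call, Adam8.

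Vascular genes did not pass either, apart from Pdgfc. Of 29 sinusoidal endothelium genes 17 were positive and the median was 0.12. Kdr, the main VEGF receptor, measured 7.98 and 7.95 in the wild-type and 8.47 and 8.29 in the knockout pools (0.41 ± 0.11, adjusted p = 0.115). Flt4, the receptor of VEGF-C, measured 6.54 and 6.56 against 7.47 and 6.80 (0.59 ± 0.20, adjusted p = 0.147), with most of its difference in knockout pool 1. For the endothelial list as a whole, the mean of knockout pool 2 stood at the wild-type mean and that of knockout pool 1 above it. Of 20 VEGF, angiopoietin and antiangiogenic factor genes Pdgfc alone was called, 10 were positive and the median was 0.01.

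Blood cell lists outside the red lineage gave 1 call, Spib, among 19 tested B lineage genes (median -0.03), of which 9 were positive and 10 negative. At an unadjusted p under 0.05, 4 of these were higher and 3 lower, against 7.93% and 13.9% of all autosomal genes tested. The early B cell genes Cd79b, Il7r and Rag1 differed by -0.56, -0.53 and -0.51, with adjusted p of 0.118 to 0.157. Rag1 was tested through its bone marrow levels, being under 5 on all 4 fetal liver arrays. All 3 genes were dim on those arrays, Rag1 at 4.01 to 4.93, Il7r at 4.81 to 5.70 and Cd79b at 5.24 to 6.18. These 3 moved with single pools: Il7r stood at -0.21 without knockout pool 2, Rag1 at -0.21 without knockout pool 1 (-0.82 without knockout pool 2) and Cd79b at -0.34 without wild-type pool 2. None of 19 megakaryocyte and platelet genes was called in fetal liver, 12 were negative and the median was -0.13, with Rab27b at -0.60 and Fli1 at -0.62. Fli1 stood at -0.23 without knockout pool 1 and at -1.01 without knockout pool 2. Of 19 neutrophil genes none was called, 10 were positive and 9 negative, and the median was 0.02. At an unadjusted p under 0.05, 5 were higher and none lower, against 7.93% and 13.9% of all autosomal genes tested. They included the granule protease genes Prtn3 (0.65) and Elane (0.37). Prtn3 measured 9.84 and 10.44 in the wild-type and 10.83 and 10.76 in the knockout pools, a wide spread between the wild-type pools. Chil3 (0.48) and Itgam (0.34), also among the 5, lay between 3.1 and 4.1 on the fetal liver arrays, near the bottom of the range. Of 23 stem and progenitor cell genes none was called (median 0.07), with Etv6 at 0.46 (adjusted p = 0.0834) and Bmi1, a Polycomb gene of stem cell self-renewal, at -0.67 (adjusted p = 0.0962). Macrophage genes (25, median 0.05), T and NK cell genes (14, median -0.03) and hematopoietic niche factors (11, median -0.02) had no call, nor did markers of gut and pancreas (5, median 0.05) or nerve and neural crest (7, median 0.07).

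Growth factor pathways and stress responses were followed last. Of 20 Hippo pathway genes Tead2 alone was called, 13 were positive and the median was 0.08, with the target gene Ccn2 at -0.40, Tgfb2 at -0.48 and the kinase gene Stk4 at 0.38. None of 30 Wnt and R-spondin genes was called (median -0.01), with the receptor gene Fzd2 at -0.62. Of 10 Slc7 amino acid transporter genes and partners none was called, 7 were positive and the median was 0.18, with the arginine transporter gene Slc7a1 at 0.62 (adjusted p = 0.0996). None of 24 interferon-stimulated genes was called, 17 were positive and the median was 0.14, with Rsad2 at 0.72 ± 0.13 (adjusted p = 0.0711). Imprinted growth genes (18, median 0.05) had no call, with Nnat at -0.67 (adjusted p = 0.0624) and Ndn at -0.39.

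Lists of cell stress also had no call. They were hypoxia and glycolysis (25 tested, 19 positive, median 0.08), heat shock and unfolded protein response (22, median 0.08), immediate early genes (23, median -0.01) and p53 and apoptosis (21, median -0.08). The cytosolic ribosomal protein list, taken by symbol, had 46 tested members, no call and a median of -0.04. That symbol rule also takes unrelated genes such as the kinase gene Rps6ka5, and 36 members were left without them, with a median of -0.03. Mitochondrial ribosomal protein genes, a list chosen after its values were seen, had 76 tested members and no call, with 64 negative and a median of -0.16, against 0.02 in bone marrow. Their list mean was 9.97 and 10.01 in the wild-type and 9.78 and 9.85 in the knockout pools, and Mrpl16 differed by -0.60 (adjusted p = 0.0902). Over 45 lists, leaving out the trimmed and the mitochondrial one, medians ran from -0.24 to 0.24, and 11 of the 35 called genes were members of any of them.

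**Figure D3:**
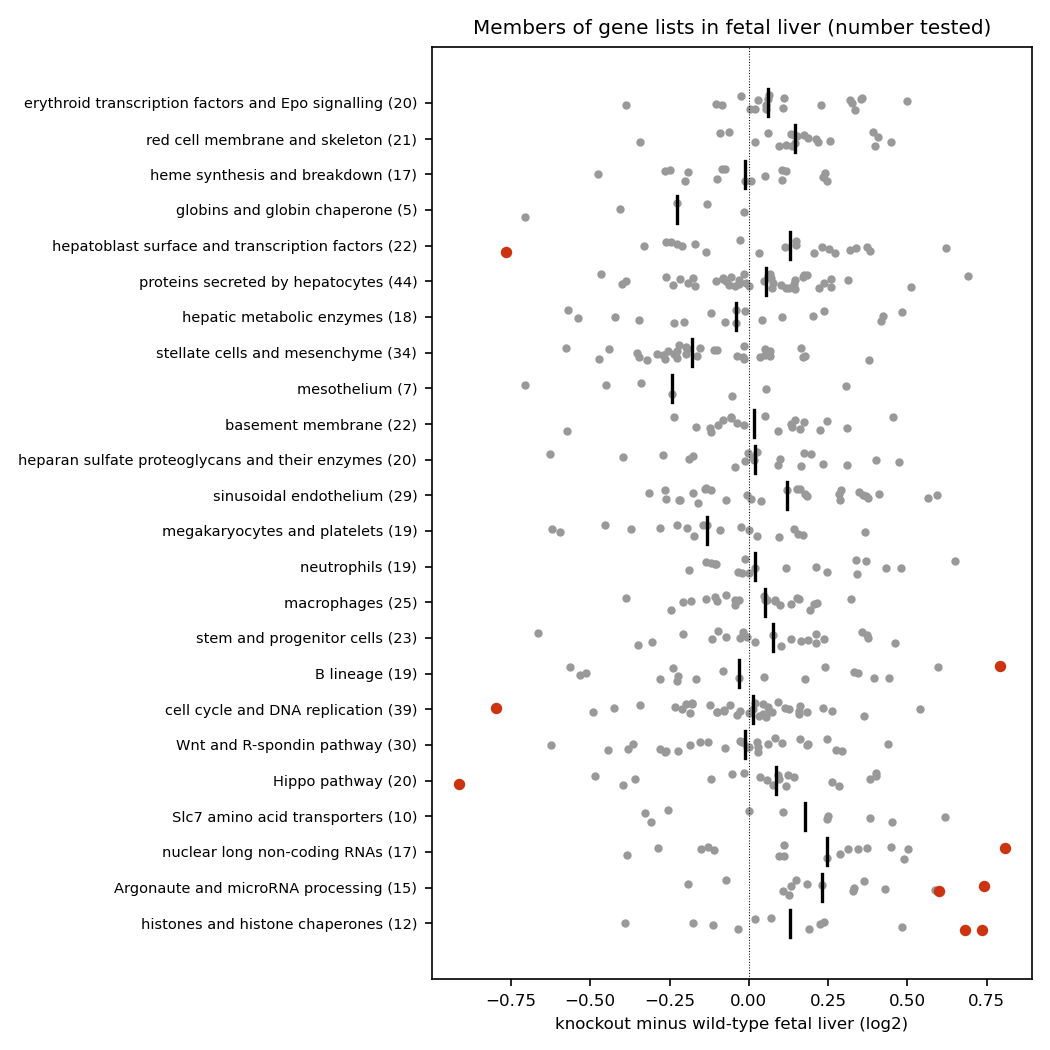
Difference between knockout and wild-type fetal liver (log2, horizontal axis) for every tested member of 24 gene lists, with the number tested in parentheses. Each dot is a gene, red dots are called genes and black bars list medians, which lie between -0.24 (mesothelium) and 0.24 (nuclear long non-coding RNAs).

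**Figure D4:**
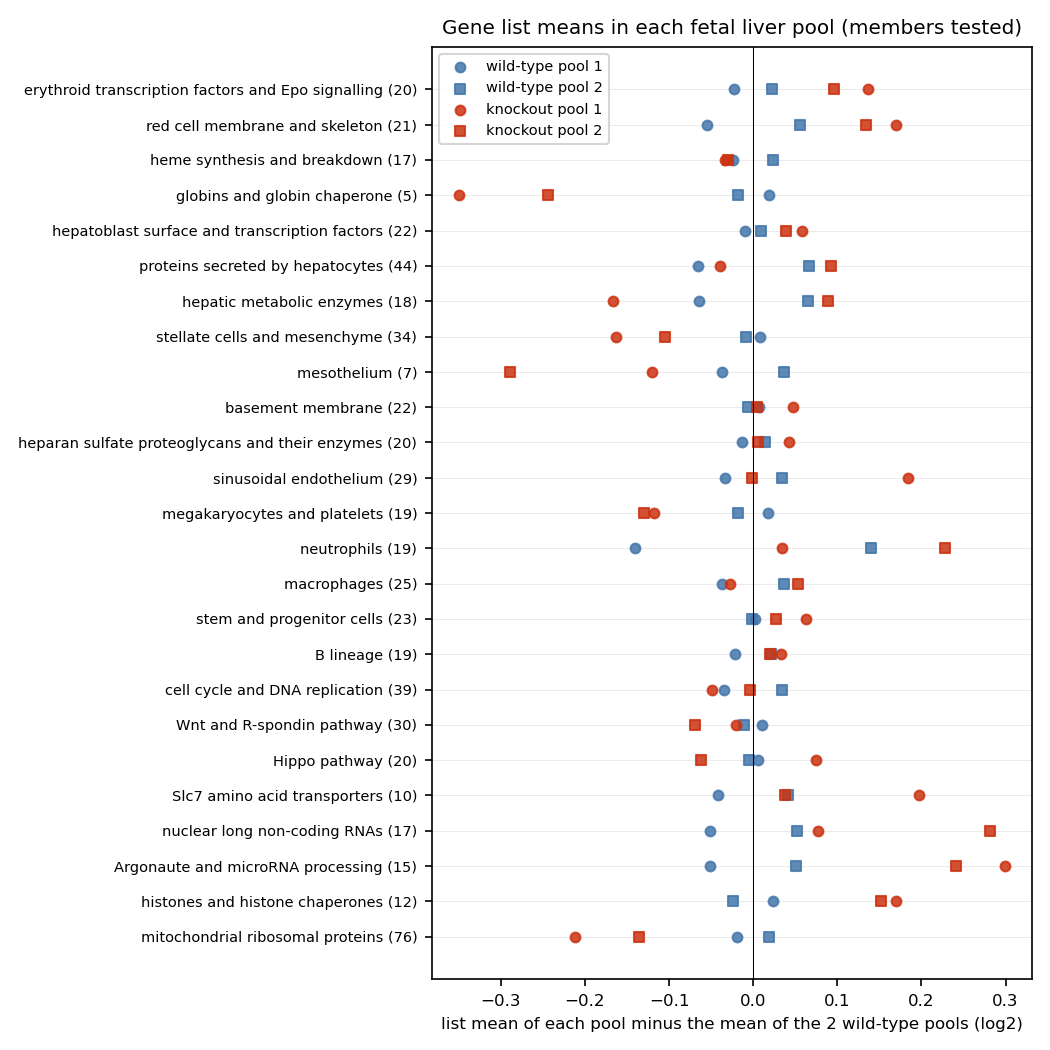
Mean of each gene list in each fetal liver pool minus the mean of the 2 wild-type pools (log2, horizontal axis), blue for wild-type and red for knockout, circles for pool 1 and squares for pool 2. For Argonaute and microRNA processing, both knockout pools stand to the right of both wild-type pools, and for mitochondrial ribosomal proteins both stand to the left. All lists were chosen with earlier results of these data known, the mitochondrial one after its values were seen. Other lists separate likewise, among them erythroid factors, red cell membrane and histones to the right and stellate cells to the left. Still others overlap, such as neutrophils and macrophages. Of all autosomal genes tested, 49.9% separate in the same way.

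Differences were also ordered by the genomic length of the gene. Over 5 equal groups of autosomal genes from short to long spans, the median difference was -0.05, -0.04, -0.03, -0.01 and 0.01, and the share of positive differences went from 39.8% to 52.0%. Genes higher at an unadjusted p under 0.05 made up 5.88% of the shortest and 12.1% of the longest group. The Spearman correlation of span and difference across the 12677 genes, which share the same 4 arrays and are not replicates, was 0.09 in fetal liver and -0.02 in bone marrow. The called genes did not follow this order, with median spans of 16.9 kb for rises and 18.9 kb for falls against 22.2 kb over all.

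The fetal liver calls were set beside the bone marrow arrays of the same genotypes. Of the 35 genes, 12 had the same sign in bone marrow, 4 an unadjusted p under 0.05 there against 6.70% of all autosomal genes tested, and Col18a1 alone was called in both tissues, bone marrow having 53 called autosomal genes (0.418%). Gdap10 stood at 0.40 there, and Malat1, Ago2 and Tnrc6a stood at -0.17, -0.02 and 0.01. The test of the difference between tissues, fetal liver minus bone marrow, called 8 autosomal genes (0.0631%), of which 3 were among the 35. Its p-values were adjusted together with those of X- and Y-linked genes. Adjusted over autosomal genes only, it called 1 gene, Lgr4, and none of the 35. Mapk8ip1, tested only through its wild-type fetal liver levels, gave -1.01 ± 0.12 (adjusted p = 0.0471), with 4.18 and 4.15 in wild-type and 4.30 and 4.31 in knockout marrow. Rfc2 gave -0.98 ± 0.13 (adjusted p = 0.0493), with 9.63 and 9.64 against 9.83 and 9.81 in marrow, and Zbed6 gave 1.08 ± 0.14 (adjusted p = 0.0493), with 7.78 and 7.72 against 7.27 and 7.38. Without knockout fetal liver pool 2 this test called 69 genes, without wild-type marrow pool 2 it called 16, and without any other single array 1. For Mapk8ip1, Rfc2 and Zbed6 the marrow difference had the opposite sign to that in fetal liver. For the other 32 genes, a difference between the tissues was not called at an adjusted p under 0.05, although every one of the 35 had an unadjusted p under 0.05, as did 15.5% of all autosomal genes tested. That contrast contains the fetal liver difference by which the 35 were chosen, so nothing is read from their count in it.

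**Figure D5:**
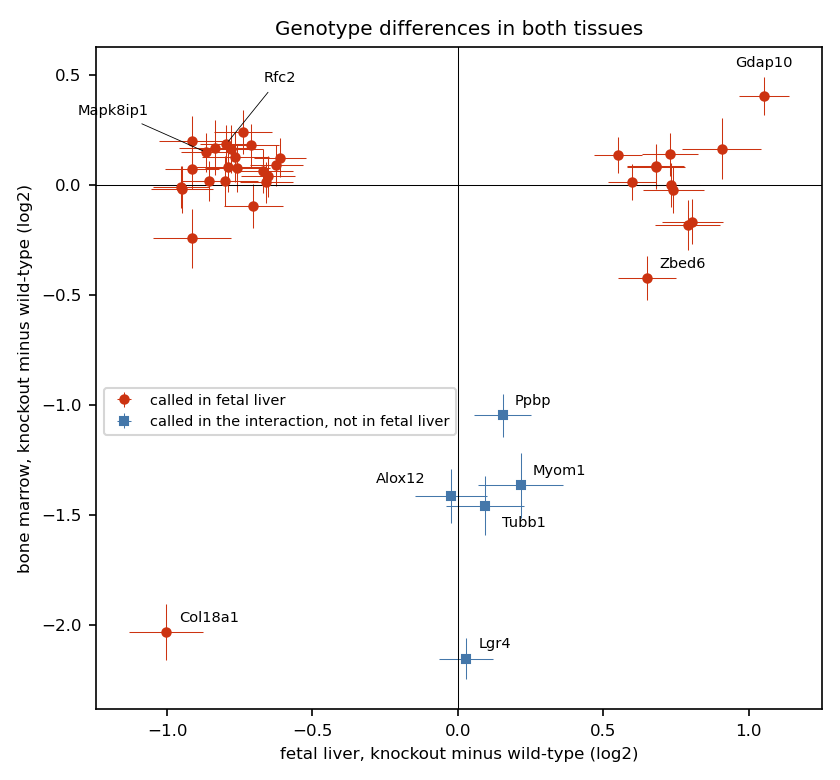
Difference between knockout and wild-type (log2) in fetal liver (horizontal axis) and bone marrow (vertical axis), with bars for the standard error of the fit. Red circles are the 35 genes called in fetal liver and blue squares the 5 further genes called in the test between tissues, and apart from Col18a1 the red circles lie between -0.43 and 0.40 in bone marrow.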

How the data were processed

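The authors deposited 1 linear intensity per probe set and array for 45101 probe sets, made with RMA, per the submitters' processing notes, with no version named. RMA aligns the distributions of arrays and compresses differences of dim probe sets, and no detection calls were used. The log2 of each intensity was taken here. Probe sets were matched to RefSeq genes (GRCm38.p6), 34754 of 34958 naming 1 gene. A gene was tested when 2 or more of the 8 arrays reached 5 (log2). The tool was limma 3.58.1 in R 4.3.3, with 1 mean per group for 4 groups of 2 arrays. Residual degrees of freedom were 4, those of the prior 4.48. P-values, two-sided, were adjusted by Benjamini-Hochberg across 13136 genes, at 0.05. P-values measure the spread between pools only. The fit was tested on simulated data. The members and lists were chosen with earlier results of these data known. Called genes, liver markers, interaction calls and, per list, at most the 4 members with the highest absolute moderated t could be named. The main fit assumed no pairing of pools by replicate number. The correlation of deviations between pools of like number was -0.06, which cannot exclude a pairing. Alternatives covered filter, probe set choice, normalization, variance model, replicate block, threshold and each array left out.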

Additional observations from a re-analysis of the deposited data

Results flagged for a closer look

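Subtracting the bone marrow difference between genotypes from that in fetal liver gave 1 value per gene for the contrast of tissues, and 8 autosomal genes were called (adjusted p under 0.05, limma). In 3 of them the fetal liver difference had also been called: Mapk8ip1 at -1.01, Rfc2 at -0.98 and Zbed6 at 1.08. The contrast contains that fetal liver difference, so it is no separate evidence for it. Adjusted over autosomal genes only, the contrast called 1 gene, Lgr4, and none of these 3. Mapk8ip1 was tested only through its wild-type fetal liver levels. In the other 5, bone marrow carried the difference. Lgr4, a receptor of R-spondins, gave 2.18, with fetal liver pools at 9.85 and 9.71 in wild-type and 9.76 and 9.86 in knockout. Myom1, a muscle sarcomere gene, gave 1.58, Tubb1, the platelet tubulin gene, 1.56, Alox12, a platelet lipoxygenase gene, 1.39 and Ppbp, a platelet chemokine gene, 1.20. Fetal liver differences of these 4 were 0.22, 0.10, -0.02 and 0.15, and none was called. Embryo sex cannot be told apart from genotype in these fetal liver values.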

How the results depend on the processing

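The 35 calls in fetal liver (12 rises, 23 falls) and the 8 calls between tissues moved with most settings, limma being the test throughout. Filtering at 6 gave 39 calls (20 rises), no filter 9 (1 and 8), the mean of a gene's probe sets 21 (7 and 14) and every probe set on its own 51 (26 rises). Centred arrays gave 32 (14 falls) and a further quantile normalization 43 (23 rises). Array weights gave 5 (1 and 4) and trended, robust moderation 387 (142 and 245). The 4 fetal liver arrays alone gave 0 rises and 0 falls, with 1838 genes at an unadjusted p under 0.05. The replicate block gave 0 of each, with 2402 genes at an unadjusted p under 0.05 (lowest adjusted p = 0.0589), and 2 calls between tissues. A threshold of 0.10 gave 367 (115 and 252) and 0.01 gave 1 (1 and 0). With 1 array left out, calls ran from 1 to 958, rises from 1 to 246 and falls from 0 to 712; 1 array of a group was then assumed to vary like the others. Without knockout pool 2, the 958 held all 35. The calls between tissues were 12 with the filter at 6, 15 centred, 12 after quantile normalization, 10 filtered on fetal liver arrays, 3 for every probe set, 4 for the mean of probe sets, 1 with no filter, 2 with array weights, 62 with trended moderation, 72 at 0.10, 1 at 0.01 and 1 when adjusted over autosomal genes only, and 1 to 69 with an array left out. They could not be computed from fetal liver alone.

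Col18a1 in fetal liver stayed at -1.003 but missed the threshold with array weights (adjusted p = 0.106), the replicate block (0.0941), fetal liver alone (0.157) and a threshold of 0.01, and ran from -1.06 to -0.95 with 1 array left out (adjusted p up to 0.11). None of the 35 called genes changed direction in the 20 to 22 settings that gave it a value. Of 47 lists, 25 kept the sign of their median in 18 settings and 22 changed it in at least 1. Uncalled markers near 0 changed sign, namely Afp, at -0.076 with the mean of probe sets, Alb, which ran from -0.122 to 0.0079 with an array left out, and Hbb-y, which ran from -0.0525 to 0.0197 and stood at 0.017 centred and 0.0207 after quantile normalization. The number of arrays limits every value, and 11 called genes lay under 6 in both genotypes, where signal is close to the bottom of the range.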
